A study of Homo sapiens with 4 samples.

Results

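The BCL2 family decides whether a cell opens the outer membrane of its mitochondria and dies by apoptosis. Its guardians (BCL2, BCL2L1 and MCL1) hold the pore-forming effectors (BAX and BAK1) in check, and the BH3-only proteins (BCL2L11, BBC3, PMAIP1, BMF and BIK) bind the guardians and free or activate the effectors through a short helix called the BH3 domain. Leukemia cells often depend on 1 or more guardians, and BCL2 itself is the target of a drug used in acute myeloid leukemia. These 10 genes were chosen by name for their roles, with earlier results of these data known. They were found by Ensembl identifier among the 64252 genes of the count table. The mRNA of each was compared between cells treated with dBET1 and cells given its solvent.

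The libraries came from cells labelled NB4, a line from acute promyelocytic leukemia that carries the PML-RARa fusion. The dBET1 group (2 libraries, replicates 1 and 2) received 8 μM dBET1 for 24 h, and the DMSO group (2 libraries, replicates 1 and 2) received DMSO, the solvent, for 24 h. dBET1 is a degrader that joins a ligand of the BET bromodomain proteins to a ligand of the ubiquitin ligase adaptor cereblon. The comparison asks how the family's transcripts stood at a time when the study also measured apoptosis by flow cytometry. Totals ran from 28019956 to 34685645 counts per library. The labels do not say whether the replicates were separate cultures, so the p-values measure only the spread between these libraries, which may be technical. In bulk RNA, fewer cells of a type and less RNA per cell cannot be told apart.

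The markers did not match the labelled cell type. Of 5 promyelocyte granule genes, ELANE and CTSG were at 0 counts in all 4 libraries, MPO was at 0 in both DMSO libraries and had 22 and 10 counts with dBET1, and the 5 together summed to 0.521 to 1.83 CPM (counts scaled to the TMM-adjusted library size). The 10 erythroid markers, which include globins, GATA1, KLF1, ALAS2 and EPOR, summed to 6051 and 7362 CPM with DMSO. With dBET1 they summed to 3704 and 3617 CPM. After dBET1, 9 of the 10 were lower (edgeR adjusted p below 0.05), where 27.6% of all genes tested were lower. The cells are therefore named below by their treatment, and the part of this difference in the results for the BCL2 family was not tested.

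The shared feature of the 10 genes is the stretch that encodes the BH3 helix. It was located in the reference transcript of each gene by its pattern of 8 codons, which opens with leucine, holds glycine or alanine at the fifth place and aspartate at the sixth, and has a hydrophobic residue at the fourth and the eighth. Each of the 10 coding sequences held exactly 1 match. The 42 bases below, from GENCODE 44 transcripts and identical to hg38, give the 8 codons with 3 codons on each side, 5′ to 3′ on the coding strand. Capitals mark the codons of the leucine and of the glycine (or alanine) and aspartate pair. They are shown because this helix is what defines the group, and because the fifth place is alanine in BMF and BBC3 and glycine in the other 8.
BMF exon 4, chr15:40104192-40104233, reverse strand: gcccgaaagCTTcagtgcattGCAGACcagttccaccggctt
BCL2L11 exon 3, chr2:111150094-111150135, forward strand: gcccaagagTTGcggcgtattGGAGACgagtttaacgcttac
BBC3 exon 3, chr19:47226576-47226617, reverse strand: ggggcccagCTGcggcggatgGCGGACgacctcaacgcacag
PMAIP1 exon 2, chr18:59902664-59902705, forward strand: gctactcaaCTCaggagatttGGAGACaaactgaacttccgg
BIK exon 3, chr22:43127707-43127748, forward strand: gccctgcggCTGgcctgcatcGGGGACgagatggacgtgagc
BAX exon 3, chr19:48955778-48955819, forward strand: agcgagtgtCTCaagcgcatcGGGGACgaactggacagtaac
BAK1 exon 4, chr6:33575384-33575425, reverse strand: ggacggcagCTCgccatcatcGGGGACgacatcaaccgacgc
BCL2 exon 2, chr18:63318346-63318387, reverse strand: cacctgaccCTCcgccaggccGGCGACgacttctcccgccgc
BCL2L1 exon 2, chr20:31721919-31721960, reverse strand: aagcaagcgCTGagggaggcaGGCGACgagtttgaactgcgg
MCL1 exon 1, chr1:150578862-150578903, reverse strand: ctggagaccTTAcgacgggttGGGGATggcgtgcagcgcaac

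Of the 10 members, 9 passed the filter on low counts and were tested, and BIK did not. By the quasi-likelihood test of edgeR (adjusted p below 0.05), 5 members were higher after dBET1 (BCL2, MCL1, BCL2L11, BBC3 and BMF), 2 were lower (BAX and BAK1) and 2 did not pass (BCL2L1 and PMAIP1). Over all 17971 genes tested, 28.0% were higher and 27.6% lower by the same rule, 55.6% in all, against 7 of the 9 tested members. With the fold limit of the study's methods added (absolute log2 fold change above 1), only BMF was called, and it was higher. By that rule 16.9% of all genes were higher and 8.54% lower. The median log2 fold change was 0.19 over the 9 tested members and 0.048 over all genes tested. The share of members called higher, 5 of 9, was above the 28.0% of all genes, and the share called lower, 2 of 9, was below the 27.6%. With only 9 genes tested such shares are coarse, and no result about the family as a whole was drawn from them. The changes below are given gene by gene, in the order BH3-only genes, effectors and guardians.

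**Figure D1:**
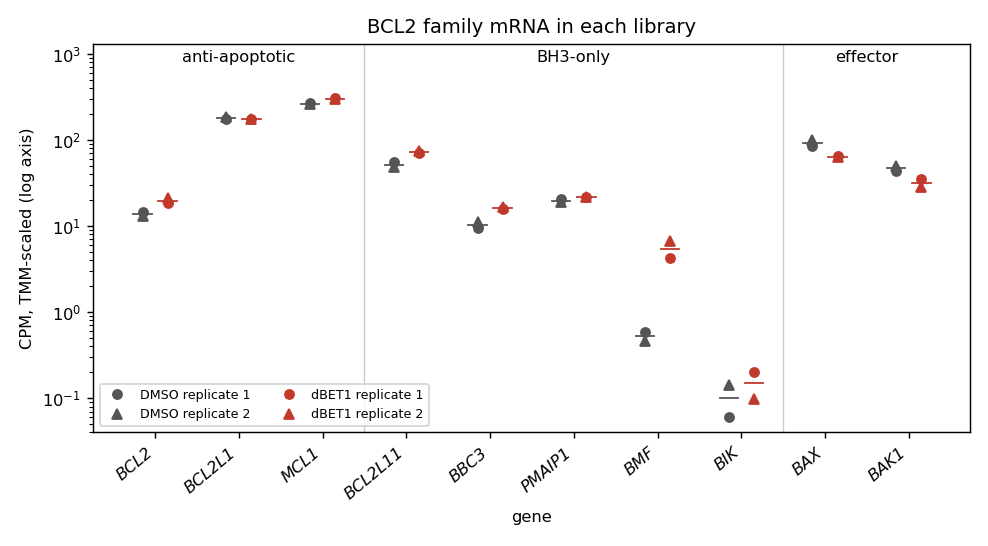
Level of each member in each library, in CPM on TMM-scaled library sizes (log axis), by role. Points are single libraries (circles replicate 1, triangles replicate 2; grey DMSO, red dBET1) and short lines are group means; BMF stands at 0.522 CPM with DMSO and 5.47 CPM with dBET1, while the other members move by far less.

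BMF (chromosome 15 of hg38, 40087890 to 40108892, reverse strand) showed the largest change of the tested members. Its protein is held on the cytoskeleton through the dynein light chain and is freed when a cell is stressed or detached. BMF had 19 and 13 counts in DMSO replicates 1 and 2 and 128 and 204 counts in dBET1 replicates 1 and 2, or 0.582 and 0.463 CPM against 4.26 and 6.68 CPM. Both dBET1 libraries lay far above both DMSO libraries, and dBET1 replicate 2 was the higher of its pair. The fitted fold was 10.4 (95% confidence interval 5.89 to 18.2), which is 3.37 on the log2 scale with a standard error of 0.351 (edgeR adjusted p = 0.000159). Among the 17971 genes BMF ranked 508 by log2 fold change and 1649 by the p of edgeR. Its change was thus large, with other genes above it by either measure. Its level stayed low also after dBET1, as the values per kb below show. The annotation places the long non-coding gene BMF-AS1 within BMF's exons on the opposite strand (461 shared bases), and BMF-AS1 had 0 counts in every library.

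BCL2L11 (chromosome 2, 111119378 to 111168444, forward strand) encodes BIM, which binds every guardian and also activates BAX and BAK directly. It measured 54.7 and 48.6 CPM with DMSO and 70.7 and 73.5 CPM with dBET1. The groups did not overlap, and the fitted fold was 1.40 (95% confidence interval 1.20 to 1.62; log2 fold change 0.48, standard error 0.0934, adjusted p = 0.00337). BCL2L11 shares 727 exon bases with MIR4435-2HG on the opposite strand, which had 1724 to 2417 counts and was lower in both dBET1 libraries. The strand setting of the counting is not stated, so reads from these bases cannot be assigned to either gene with certainty.

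BBC3 (chromosome 19, 47220822 to 47232766, reverse strand) encodes PUMA, which also binds every guardian. Its values were 9.41 and 11.1 CPM with DMSO and 15.9 and 16.4 CPM with dBET1, again without overlap. The fold was 1.58 (95% confidence interval 1.23 to 2.02; log2 fold change 0.66, standard error 0.153, adjusted p = 0.00792). Without dBET1 replicate 2 the log2 fold change was 0.62 and the adjusted p 0.0563.

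PMAIP1 (chromosome 18, 59899996 to 59904305, forward strand) encodes NOXA, which binds MCL1 with preference. It measured 20.6 and 18.8 CPM with DMSO and 21.5 and 21.6 CPM with dBET1. Both dBET1 values were the higher ones, but the fold was 1.09 with a 95% confidence interval of 0.902 to 1.33 (log2 fold change 0.13, edgeR adjusted p = 0.387). Neither a rise nor a fall within that interval could be excluded. With library totals in place of TMM factors, a scaling that moves the median of all genes from 0.048 to 0.26, PMAIP1 was at 0.34 with an adjusted p of 0.0496.

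BIK (chromosome 22, 43110750 to 43129712, forward strand) encodes a BH3-only protein of the endoplasmic reticulum. Only 2 and 4 reads were counted for it in the DMSO libraries, and 6 and 3 after dBET1. At this depth neither a change nor its absence could be shown. With no filter on counts its log2 fold change was 0.50 with an adjusted p of 0.704. Across the 5 BH3-only genes the summed level was 85.4 and 79.1 CPM with DMSO and 113 and 118 CPM with dBET1, and BCL2L11 alone made up most of each sum.

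BAX (chromosome 19, 48954815 to 48961798, forward strand) and BAK1 (chromosome 6, 33572547 to 33580293, reverse strand) encode the proteins that form the pore in the outer mitochondrial membrane, and both fell. BAX stood at 85.0 and 100.5 CPM in the DMSO libraries and at 65.4 and 62.7 CPM after dBET1. The fold was 0.691 (95% confidence interval 0.587 to 0.813; log2 fold change -0.53, standard error 0.101, adjusted p = 0.00297). BAK1 went from 44.1 and 49.4 CPM to 34.9 and 28.1 CPM, a fold of 0.675 (95% confidence interval 0.550 to 0.828; log2 fold change -0.57, standard error 0.127, adjusted p = 0.00655). For both genes each dBET1 library was below each DMSO library. Without dBET1 replicate 2, BAK1 was at -0.44 with an adjusted p of 0.0611, while BAX kept its call without any single library. The effectors thus moved the other way from the BH3-only genes that passed the test, and the log2 ratio of BAK1 to BAX itself differed by -0.045 between groups, less than its spread between replicates (pooled SD 0.131).

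Among the guardians, BCL2 (chromosome 18, 63123346 to 63320128, reverse strand) was higher after dBET1. It measured 14.6 and 13.1 CPM with DMSO and 18.3 and 21.0 CPM with dBET1, without overlap. The fold was 1.42 (95% confidence interval 1.13 to 1.78; log2 fold change 0.50, standard error 0.142, adjusted p = 0.0179). The call was lost without DMSO replicate 2 (0.40, adjusted p = 0.0526), without dBET1 replicate 2 (0.38, adjusted p = 0.186) and with no count filter (0.45, adjusted p = 0.0784).

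MCL1 (chromosome 1, 150560895 to 150579738, reverse strand) encodes a guardian with a short-lived mRNA and protein, on which many myeloid leukemias depend. It measured 269 and 259 CPM with DMSO and 305 and 298 CPM with dBET1. The groups did not overlap, yet the fold was only 1.14 (95% confidence interval 1.02 to 1.28; log2 fold change 0.19, standard error 0.0690, adjusted p = 0.0452). This call was lost under 7 of the 11 alternatives, with adjusted p values from 0.00214 to 0.347 over all of them. Without DMSO replicate 2 the value was 0.13 (adjusted p = 0.0562), without dBET1 replicate 1 it was 0.17 (adjusted p = 0.347) and without dBET1 replicate 2 it was 0.19 (adjusted p = 0.284). The exons of MCL1 overlap ADAMTSL4-AS1 on the same strand by 328 bases, whose counts were 10 and 6 in the DMSO libraries and 200 and 133 after dBET1, small beside the 7274 to 9160 counts of MCL1.

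BCL2L1 (chromosome 20, 31664452 to 31723989, reverse strand) encodes BCL-XL, the guardian of maturing erythroid cells and platelets. Its values of 173 and 184 CPM with DMSO and 177 and 176 CPM with dBET1 overlapped. The fold was 0.988 with a 95% confidence interval of 0.879 to 1.11 (log2 fold change -0.017, adjusted p = 0.861). Its sign depended on the scaling and the filter, and with library totals only it was 0.19 (adjusted p = 0.0502). The long and short splice forms of BCL2L1 have opposite roles, as do forms of MCL1, and the counts per gene do not separate them. ABALON, on the opposite strand, shares 1735 exon bases with BCL2L1 and was not analysed here.

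**Figure D2:**
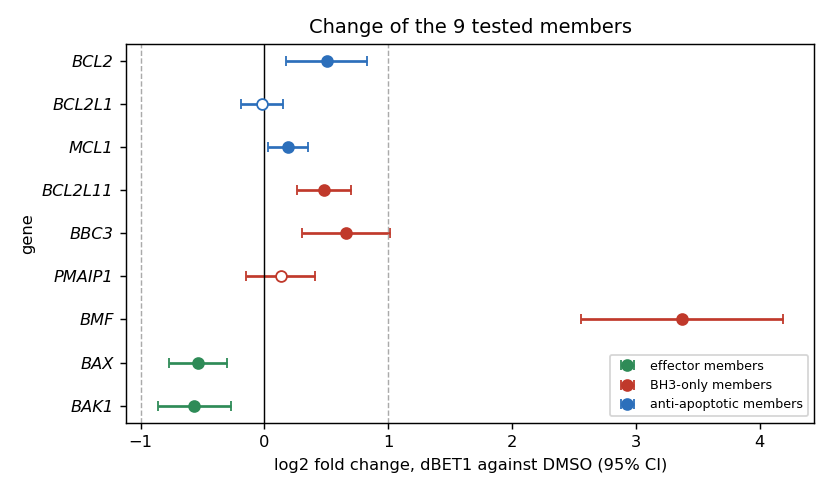
Log2 fold change of the 9 tested members after dBET1 against DMSO (n = 2 libraries in each group), with 95% confidence intervals from edgeR. Filled points had an adjusted p under 0.05, dashed lines mark the fold limit of 1, and the interval of BMF alone lies beyond that limit.

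To compare levels between genes, counts were divided by the length of each gene's merged exons and scaled to a fixed sum per library. With DMSO the order was MCL1 at 128 ± 9.42 (SD, n = 2), BCL2L1 at 128 ± 0.602, BAX at 108 ± 7.80, BAK1 at 63.7 ± 2.27, PMAIP1 at 27.2 ± 3.07, BCL2L11 at 23.2 ± 2.98, BBC3 at 9.72 ± 0.716, BCL2 at 3.32 ± 0.392, BIK at 0.319 ± 0.167 and BMF at 0.291 ± 0.0601 TPM (length-scaled counts with the same sum in each library, without TMM factors). Neighbours whose library values overlapped were MCL1 and BCL2L1, PMAIP1 and BCL2L11, and BIK and BMF. The guardian transcripts in these cells were therefore mostly those of MCL1 and BCL2L1, with BCL2 far lower. With dBET1 the order was nearly kept. MCL1 stood at 158 ± 0.630, BCL2L1 at 137 ± 2.39, BAX at 80.7 ± 0.758 and BAK1 at 46.4 ± 6.11 (SD, n = 2). BCL2L11, at 34.9 ± 1.66, came before PMAIP1, at 32.1 ± 0.795, and BMF, at 3.29 ± 1.09, came before BIK, at 0.509 ± 0.236. BBC3 at 16.6 ± 0.738 and BCL2 at 5.07 ± 0.598 kept their places. No neighbours overlapped in the dBET1 libraries. Merged exons include those of rare transcripts, which lowers the value of a gene with long alternative ends such as BCL2 (12612 bases).

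**Figure D3:**
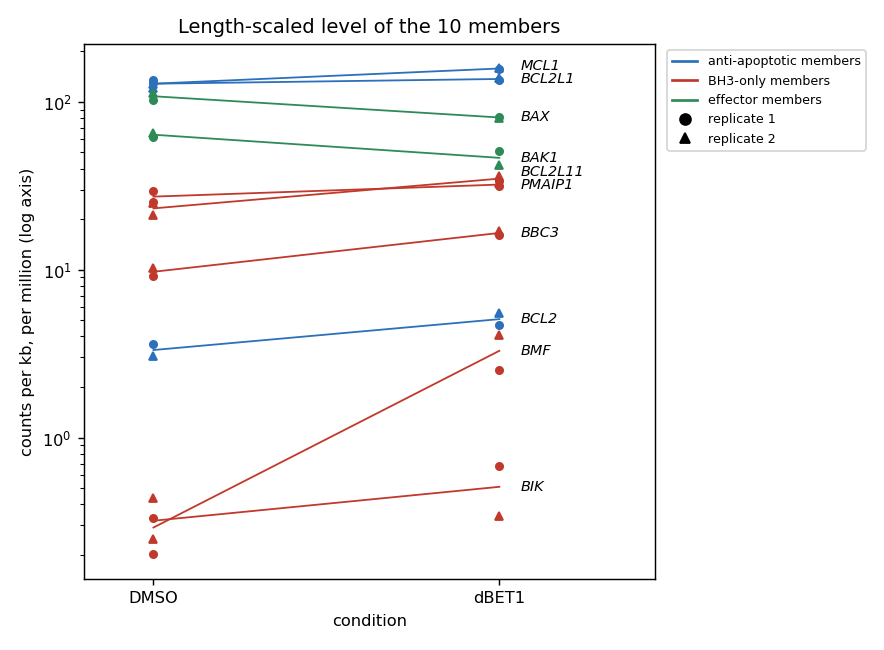
Length-scaled level of the 10 members in each library, in length-scaled counts per kb of merged exon, with the same sum in each library (log axis), with lines joining the group means. MCL1 and BCL2L1 lead in both conditions, the effectors BAX and BAK1 come down, and BMF rises from 0.291 to 3.29 without reaching the level of BCL2 (5.07).

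Ratios of 2 members within a library do not depend on the scaling between libraries, and gene length cancels when they are compared between conditions. With 2 libraries against 2, the smallest exact p is 0.333, so the differences are given beside the spread between replicates. BAX relative to BCL2, the classical ratio of death to survival transcripts, was lower after dBET1, with log2 count ratios of 2.55 and 2.94 with DMSO and 1.84 and 1.58 with dBET1. The difference of -1.03 was larger than the pooled SD of 0.234 and corresponds to a ratio of 0.490 times that with DMSO. It joins the fall of BAX with the rise of BCL2, the guardian of lowest level here, and no ratio of BAX to MCL1 or BCL2L1 was taken. BCL2L11 relative to MCL1 went from -2.30 and -2.41 to -2.11 and -2.02, a difference of 0.29 (pooled SD 0.0721). BBC3 relative to BCL2L1 differed by 0.68 (pooled SD 0.0847) and BMF relative to MCL1 by 3.17 (pooled SD 0.367). PMAIP1 relative to MCL1 differed by -0.060 (pooled SD 0.0453), and its groups overlapped. Between guardians, BCL2 relative to BCL2L1 was 0.52 higher (pooled SD 0.155) and MCL1 relative to BCL2L1 was 0.21 higher (pooled SD 0.0715). The groups overlapped for BAK1 to BAX, PMAIP1 to MCL1 and BIK to BCL2L1 and were apart for the other pairs. With so few libraries such separation is weak by itself. Its share over pairs of all genes was not computed, so nothing was read from how many pairs were apart.

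**Figure D4:**
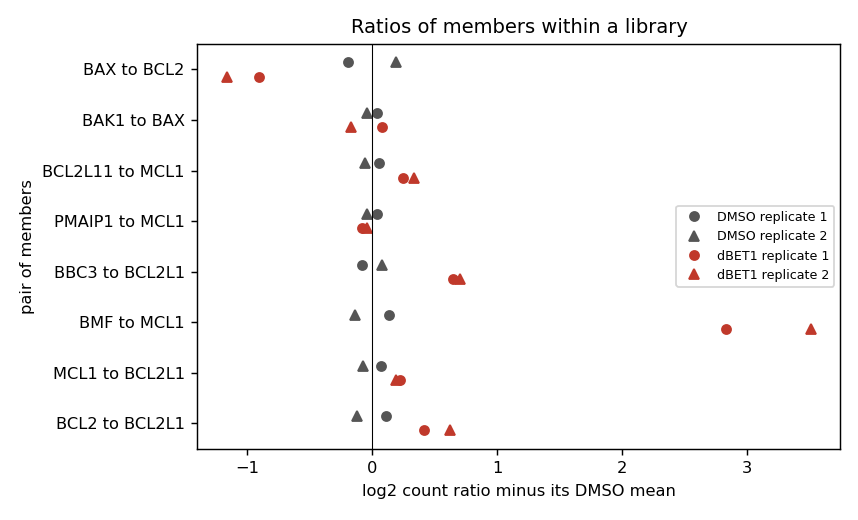
Log2 ratio of the counts of 2 members in each library, minus the DMSO mean of that ratio, for 8 of the 9 pairs (BIK to BCL2L1, with 2 to 6 counts of BIK, is left out). Each point is a library; BAX to BCL2 lies near -1 after dBET1, BMF to MCL1 between 2.83 and 3.51, and BAK1 to BAX and PMAIP1 to MCL1 overlap with DMSO.

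The regions around the starts of the members were read from RefSeq (GRCh38.p14, 250 bases before and 50 from the start), which held 10 entries for 8 members and none for MCL1 and BIK. They were searched on both strands for the E-box of MYC and MAX (CACGTG), the AP-1 site of FOS and JUN (TGANTCA), the FOXO site (TGTTTAC), the GC box (GGGCGG) and the TATA box (TATAAA). Among all 35116 entries, 7.26% held the E-box, 7.71% the AP-1 site, 3.42% the FOXO site, 45% the GC box and 11.5% the TATA box. BAX held 4 E-boxes, at 138, 93, 45 and 14 bases before the start, and 5 of the 35116 entries held at least 4. BBC3 held 1 E-box at 232 and 1 AP-1 site at 113 bases before the start. BCL2L11 held a FOXO site at 223 bases before the start and 3 GC boxes. BMF has 2 entries, and the CG-rich one (31 CG pairs, against a median of 14) held 2 GC boxes and none of the other 4 motifs. The other BMF entry held none of the 5. BAK1, which fell as BAX did, held 2 GC boxes and no E-box. BCL2 held none of the 5 motifs, and PMAIP1 held 4 GC boxes. For BCL2L1, 1 entry held a GC box and the other held 2 TATA boxes. A match is a run of letters and does not show that a factor binds there. The part of these motifs in the changes of the members was not tested. Shown are the CG-rich entry of BMF, the member that rose most, and those of BAX (4 E-boxes) and BCL2L11 (FOXO site). Each entry runs 5′ to 3′ on the strand of the gene. Capitals mark the motifs, which do not overlap each other.
BMF promoter, chr15:40108830-40109129, reverse strand: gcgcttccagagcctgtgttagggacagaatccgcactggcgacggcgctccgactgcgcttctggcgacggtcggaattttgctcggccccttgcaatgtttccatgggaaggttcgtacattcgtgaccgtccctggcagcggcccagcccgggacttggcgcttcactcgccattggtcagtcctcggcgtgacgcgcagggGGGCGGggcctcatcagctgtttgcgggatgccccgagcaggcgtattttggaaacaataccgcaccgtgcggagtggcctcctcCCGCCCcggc
BAX promoter, chr19:48954625-48954924, forward strand: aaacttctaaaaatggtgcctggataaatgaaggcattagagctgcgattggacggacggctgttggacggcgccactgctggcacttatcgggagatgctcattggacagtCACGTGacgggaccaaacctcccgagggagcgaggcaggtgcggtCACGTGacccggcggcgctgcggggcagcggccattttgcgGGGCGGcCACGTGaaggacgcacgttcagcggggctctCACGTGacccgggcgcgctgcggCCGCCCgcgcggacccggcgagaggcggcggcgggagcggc
BCL2L11 promoter, chr2:111120664-111120963, forward strand: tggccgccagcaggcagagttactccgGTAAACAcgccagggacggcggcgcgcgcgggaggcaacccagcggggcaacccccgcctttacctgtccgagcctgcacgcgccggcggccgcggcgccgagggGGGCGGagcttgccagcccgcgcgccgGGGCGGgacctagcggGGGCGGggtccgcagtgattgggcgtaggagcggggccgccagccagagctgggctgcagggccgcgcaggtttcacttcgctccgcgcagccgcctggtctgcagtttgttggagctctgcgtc

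Genes whose products act on these members were counted from lists of general knowledge. Among 15 tested regulators of BH3-only genes, 5 were higher and 3 lower (edgeR adjusted p below 0.05), with a median log2 fold change of 0.12. By the same rule 28.0% of all genes tested were higher and 27.6% lower. Nothing about this list as a whole was drawn from these counts. FOXO3, a factor known to switch on BCL2L11, BBC3 and BMF, rose from 22.2 ± 0.0382 to 58.0 ± 1.26 CPM (SD, n = 2), a log2 fold change of 1.39 (adjusted p = 2.38e-05). Its relative FOXO1 rose by 1.18 on the log2 scale. JUN, the AP-1 subunit that can raise BCL2L11, rose by 2.91 on that scale (adjusted p = 2.66e-06). STAT5A, a signal-driven factor known to keep BCL2L1 and MCL1 expressed, fell from 532 ± 20.2 to 231 ± 0.719 CPM (SD, n = 2), a log2 fold change of -1.20 (adjusted p = 1.51e-05). BCL2L1 did not pass the test, and MCL1 was 0.19 higher on the log2 scale, a call that most alternatives lost. MYC, which can sensitize cells to death through several BCL2 family members, fell from 455 ± 14.2 to 274 ± 6.30 CPM (SD, n = 2), or by 0.73 on the log2 scale (edgeR adjusted p = 0.000101). The activity of these factors was not measured, and the part of their changes in those of the members was not tested.

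In the rest of the BCL2 family, 13 genes were listed and 8 tested. BCL2A1 and BCL2L10 were at 0 counts in all libraries, and BCL2L14, BCL2L15 and HRK had at most 11 counts in a library. Of the 8, 3 were higher and 3 lower, with a median log2 fold change of 0.048. Over all genes tested, 28.0% were higher and 27.6% lower. BNIP3L, which marks mitochondria for removal and clears them from maturing red cells, rose from 32.9 ± 2.26 to 83.9 ± 2.27 CPM (SD, n = 2), or 1.35 on the log2 scale with a standard error of 0.0924 (adjusted p = 2.66e-05). The other genes of this list are named after their values were seen. BID, the BH3-only protein that links death receptors to mitochondria, fell by 0.83 on the log2 scale (adjusted p = 0.000227), and BCL2L2 and BCL2L12 fell by 0.45 and 0.46. BCL2L13 and BNIP3 rose by 0.44 and 0.46. BAD and BOK did not pass the test.

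The 13 genes of the mitochondrial death steps, which include 3 VDAC channel genes, were all tested. Of them 7 were lower and 3 higher, with a median of -0.42, where 27.6% of all genes tested were lower and 28.0% higher. CYCS, the gene of cytochrome c, fell from 512 ± 15.1 to 242 ± 4.31 CPM (SD, n = 2), a log2 fold change of -1.08 (adjusted p = 2.09e-05), and AIFM1, a respiratory chain assembly factor that can also enter the nucleus in dying cells, also fell by 1.08 on that scale. In the other direction, APAF1, the scaffold of the apoptosome that cytochrome c activates, rose from 16.2 ± 2.06 to 33.5 ± 0.870 CPM (SD, n = 2), a log2 fold change of 1.04 (adjusted p = 0.000338). CYCS and the VDAC genes have processed pseudogenes of nearly the same sequence, among which the counting could split reads. The 3 VDAC channel genes, named after their values were seen, fell by 0.99, 0.49 and 0.88 on the log2 scale. Several of the genes that fell also serve respiration, and this list does not separate that role from death.

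Among the inhibitors of apoptosis, 7 genes were listed and 6 tested. XIAP, BIRC2 and BIRC3 were higher and none was lower, with a median of 0.24. Over all genes tested, 28.0% were higher and 27.6% lower. BIRC3, a ubiquitin ligase of NF-kappaB signalling, had counts of 8 and 9 in the DMSO libraries and of 68 and 67 after dBET1, which is 2.97 on the log2 scale with a standard error of 0.379 (adjusted p = 0.000421). BIRC2, its near relative, was at 0.99 and XIAP, the direct caspase inhibitor, at 0.38. Without DMSO replicate 2, 1 gene of this list was lower. Against the same shares of all genes, 1 of 7 genes of MCL1 protein turnover was higher and none was lower by this test. This was USP9X, which removes ubiquitin from MCL1, at 108 ± 11.6 and 224 ± 0.0777 CPM (SD, n = 2), a log2 fold change of 1.05 (adjusted p = 6.58e-05). The ubiquitin ligase gene HUWE1 was at 0.20 (adjusted p = 0.110). The count of higher genes in this list ran from 1 to 4 over the alternatives.

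**Figure D5:**
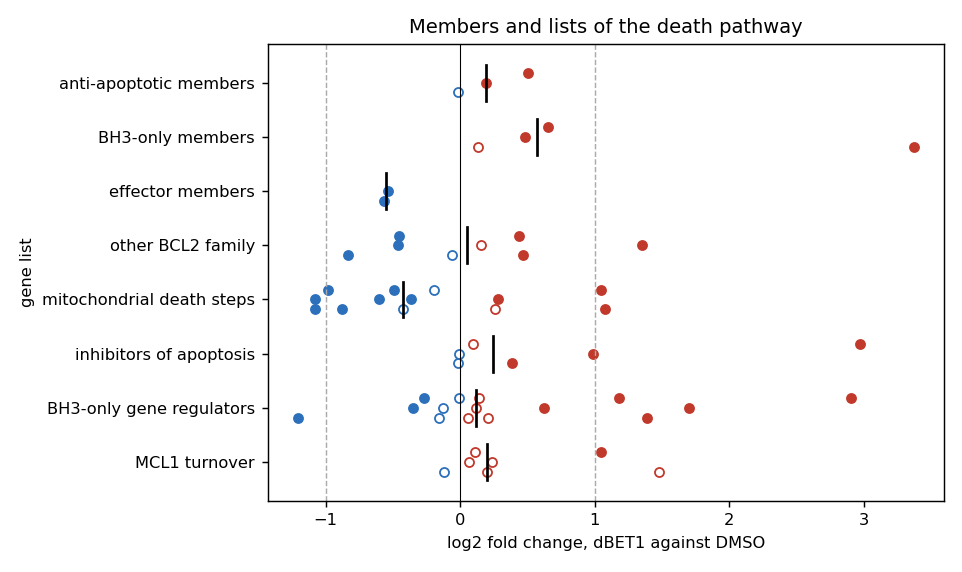
Log2 fold change after dBET1 against DMSO of each tested gene, by list (n = 2 libraries in each group). Filled points had an adjusted p under 0.05, black bars are list medians and dashed lines mark the fold limit of 1; among the 5 lists of non-members drawn here, the medians run from -0.42 (mitochondrial death steps) to 0.24 (inhibitors of apoptosis).

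The genes nearest to each member in level over the 4 libraries were found by the distance of log2(CPM + 0.5). For BMF this was PNPLA7, which went from 0.568 to 5.07 CPM, and the distance of 0.231 was the largest of the 9 members. ZNF134 lay nearest to BCL2, HGS to BCL2L1, DGCR2 to MCL1, PRR14L to BCL2L11, EDEM2 to BBC3, ZNF26 to PMAIP1, SNX8 to BAX and CARS2 to BAK1, at distances of 0.0544 to 0.134. Over 4 libraries in 2 conditions such likeness is weak, and nothing was read from it.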

How the data were processed

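RNA-seq of 4 libraries (2 dBET1, 2 DMSO) was used. The authors aligned paired-end reads to hg38 (Ensembl) with HISAT2 2.2.0, estimated abundances with StringTie and deposited read counts for each gene, in whole numbers and not normalized. How the abundances became counts, and the strand setting, are not given in the sources used here, so counts divided by 2 were tried as an alternative. All columns were used, and 0 rows lacked a gene identifier. Symbols, coordinates and exon lengths came from GENCODE 44 (56105 of 64252 identifiers found; the others held 2.57% of the counts).

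Counts were analysed with edgeR 4.0.16 in R 4.3.3 (filterByExpr, TMM factors, glmQLFTest with the group alone, Benjamini-Hochberg over 17971 genes). Every adjusted p in the text comes from it unless DESeq2 1.42.0 is named. The thresholds are those of the study's methods, an adjusted p below 0.05 and a log2 fold change beyond 1 in size, while the study used DESeq2. The standard error is the log2 fold change divided by the square root of F. The biological coefficient of variation was 0.123, and counting error is not small beside it for genes with few counts, among them BIK, BMF, BIRC3, CEBPA, ITGAM and MPO. Gene lists were regulators of BH3-only genes, the other BCL2 family, mitochondrial death steps, inhibitors of apoptosis, MCL1 turnover, and promyelocyte granule, myeloid, erythroid, lymphoid and stromal markers. The members and lists were chosen with earlier results of these data known. Named are all members, listed genes past both thresholds, MYC, genes overlapping a member, the nearest gene in level and, where stated, genes chosen after their values were seen. BIRC2, XIAP, HUWE1, BAD and BOK were also chosen in that way. The steps were tested on simulated data. Some listed genes, and 1 further list, were left out of the text. SDs rest on 2 values, and outlying libraries were not tested for in groups of this size.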

Additional observations from a re-analysis of the deposited data

How the results depend on the processing

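Each result was computed again with the replicate number as a block, with DESeq2, with DESeq2 size factors, with total counts only, without a count filter, with a minimum of 10 counts per sample, with counts divided by 2 and with each library left out in turn. BMF was higher past both thresholds in all of them (log2 fold change 2.999 to 3.66), and no other member passed the fold limit in any. BCL2L11 and BAX kept their calls in all of them. With no count filter 3 members were higher, and with each library left out 2 to 5 were higher and 1 to 2 lower. BCL2 was 0.45 with no count filter (adjusted p = 0.0784) and 0.38 to 0.59 with a library left out. BBC3 was 0.51 to 0.75 and BAK1 -0.74 to -0.44 with a library left out, and both lost the call without dBET1 replicate 2. MCL1 lost its call with DESeq2 size factors (0.18), with DESeq2 (0.16), with no count filter (0.14) and with 3 of the 4 libraries left out (0.13 to 0.19). BCL2L1 changed sign with total counts only (0.19), with at least 10 counts in every sample (0.053) and with counts divided by 2 (0.015), and PMAIP1 passed with total counts only (0.34, adjusted p = 0.0496). Relative to the median of all genes, MCL1 was 0.14 and BCL2L1 -0.06 with either TMM factors or total counts. A change of scaling alone moves all genes nearly alike, so that likeness was fixed in advance. Where the genes tested also differed, the relative values moved. MCL1 was -0.12 with no count filter, 0.043 with DESeq2 and 0.24 with at least 10 counts in every sample. BCL2L1 was -0.32, -0.17 and 0.035 in the same settings. The cause of these other shifts was not tested.

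The labels do not say whether libraries with the same replicate number were handled together. The difference of replicates 1 and 2 correlated at -0.000518 between the groups over the tested genes, which does not show that they were unpaired. With the replicate number as a block, MCL1 was 0.19 with an adjusted p of 0.0908, 2 genes of MCL1 turnover were higher, and no other call of a member changed.

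Among the lists, total counts only gave 8 higher and 1 lower regulators of BH3-only genes and 4 higher genes of MCL1 turnover. That last count was 2 with DESeq2, 3 with at least 10 counts in every sample, 2 with counts divided by 2 and 1 to 3 with a library left out. With a library left out, 1 to 3 other BCL2 family genes were higher, 0 to 1 inhibitors of apoptosis were lower and 1 to 4 regulators were lower; the lowest counts came without dBET1 replicate 2 for the first and the last. Depth limits BIK, which had too few counts for a test.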

Other observations

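Marker lists of other blood and tissue cells were also counted. The 8 myeloid markers summed to 76.4 and 84.0 CPM with DMSO and to 58.4 and 62.7 CPM with dBET1. At an adjusted p under 0.05, 2 genes were higher (CEBPA, a master factor of granulocytes, and ITGAM, an integrin of mature myeloid cells) and 3 lower. The lower ones were CD68 (-1.46 on the log2 scale), LYZ (-0.70) and SPI1 (-0.34), the last 2 named after their values were seen. The median log2 fold change of this list was -0.30, and over all genes tested 28.0% were higher and 27.6% lower. Counts of ITGAM were 22 and 9 in the DMSO libraries and 170 and 152 after dBET1, and those of CEBPA 5 and 7 against 58 and 54. The 6 lymphoid markers summed to 30.5 and 35.0 CPM with DMSO and to 14.1 and 14.6 CPM with dBET1, nearly all of it CD3D, while MS4A1 was at 0 counts throughout and CD3E had at most 2. The 5 stromal markers summed to 1.42 to 4.10 CPM, with COL1A2 at 0 counts, and COL1A1 and DCN were higher after dBET1. The part of these lists in the changes of the BCL2 family was not tested.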
